A study of Mus musculus with 7 samples.

Results

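PU.1 and MITF peaks were followed at 8 interferon regulatory factor (IRF) genes of the mouse, Irf1, Irf2, Irf3, Irf4, Irf5, Irf7, Irf8 and Irf9, of 22365 protein-coding genes in the annotation. A peak was counted at a gene when its center lay in the gene or within 75 kb of either end on mm9. The genes were listed by name and not by a cutoff on a measured value, though with earlier results of these data known. ChIP-Seq pulls chromatin down with an antibody and counts the sequenced fragments (tags) that pile up at a locus. Bone marrow cells of C57BLACK6 mice aged 4 to 6 weeks were grown for 3 days on plastic with 50 ng per mL of recombinant human CSF1, which expands macrophage precursors, and are called MPs. RANKL, the cytokine that turns such cells into osteoclasts, was added at 100 ng per mL for 36 h (the 36 h cells) or for 72 h (OCs), with CSF1 kept at 50 ng per mL. In the culture method of the study, cells were moved from non-adherent to adherent plates when RANKL was added. Plate type and time in culture can thus differ between MPs and the later cells and cannot be told apart from RANKL. PU.1 and MITF were each precipitated with 5 µg of antibody from MPs, 36 h cells and OCs, and an IgG control came from MPs, which gave 7 libraries with 1 per condition. No condition has a replicate, so no difference between conditions was tested, and the intervals below cover counting error of single libraries only. The labels name no transgene or deletion, and the lists hold binding and no expression, so the identity of the cells was not checked by marker genes.

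IRF proteins share a DNA-binding domain that reads GAAA-type repeats, and most are known for switching interferon genes and interferon-stimulated genes on or off. Irf8 and Irf4 bind such DNA weakly alone and are recruited next to PU.1, the ETS factor that specifies myeloid cells, at composite elements that join an ETS and an IRF element. Irf8 keeps precursors on the monocyte and dendritic path and represses osteoclast formation, while MITF is a basic helix-loop-helix factor that drives osteoclast genes from E-box elements. Irf1 is an activator induced by interferon gamma, and Irf2 competes with it for the same elements. Irf3 and Irf7 are activated below nucleic acid sensors, Irf5 acts below Toll-like receptors, and Irf9 is the DNA-binding part of the complex that answers type I interferon.

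The sequences at 10 PU.1 sites are printed first, and the peak counts and scores below were not derived from them. A site is the PU.1 peaks of the 3 lists joined where they overlap by at least 1 bp, and it is named by the gene and by the distance of its center from the gene start, negative upstream. Each line holds 150 bases of the plus strand of mm9 around the center, and capitals mark a match to 1 of 5 motifs searched on both strands. The motifs were GAGGAAGT for PU.1, GGAANNGAA for a composite of an ETS and an IRF element, GAAANNGAA for the interferon-stimulated response, and the E-boxes CACGTG and CATGTG. A match describes letters and not a bound element. The first set is Irf8, with its highest PU.1 peak, the peak nearest its start, sites that also carried MITF and sites whose PU.1 score differed between lists. Only windows with a match were printed, so the Irf8 sites at -50.1 kb and -27.0 kb, named below, are left out. Windows that touch an untranslated region (UTR) of a coding gene were left out too.
Irf8 +27.1 kb: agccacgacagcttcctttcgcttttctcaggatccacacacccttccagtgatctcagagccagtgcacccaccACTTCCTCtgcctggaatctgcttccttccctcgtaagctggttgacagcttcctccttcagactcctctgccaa
Irf8 +1.2 kb: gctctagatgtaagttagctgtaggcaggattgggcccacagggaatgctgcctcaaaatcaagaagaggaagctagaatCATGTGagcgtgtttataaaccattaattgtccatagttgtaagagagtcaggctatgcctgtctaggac
Irf8 +56.4 kb: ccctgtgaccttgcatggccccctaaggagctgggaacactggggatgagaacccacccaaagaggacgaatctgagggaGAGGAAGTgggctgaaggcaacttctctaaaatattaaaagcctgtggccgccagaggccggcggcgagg
Irf8 -16.2 kb: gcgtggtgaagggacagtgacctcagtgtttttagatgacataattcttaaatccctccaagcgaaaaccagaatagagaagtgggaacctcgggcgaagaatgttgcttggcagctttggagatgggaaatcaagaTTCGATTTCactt
Irf8 +50.3 kb: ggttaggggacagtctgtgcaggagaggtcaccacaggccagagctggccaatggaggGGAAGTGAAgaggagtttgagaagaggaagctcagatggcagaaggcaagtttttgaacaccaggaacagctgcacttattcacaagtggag
Irf8 -20.2 kb: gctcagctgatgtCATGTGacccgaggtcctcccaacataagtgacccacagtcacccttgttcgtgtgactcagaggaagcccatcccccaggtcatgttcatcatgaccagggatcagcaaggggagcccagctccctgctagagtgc
The second set gives at most 1 motif-holding site for each of the other genes. No window is printed for Irf3, Irf7 and Irf9, which does not mean that their sites lack motifs. Within 100 bases of the center, Irf3 +0.1 kb and Irf7 -2.6 kb held the interferon-stimulated response letters. Irf7 +1.5 kb held the composite. The capitals at Irf2 -0.2 kb join a composite and an interferon-stimulated response match that overlap.
Irf1 +24.2 kb: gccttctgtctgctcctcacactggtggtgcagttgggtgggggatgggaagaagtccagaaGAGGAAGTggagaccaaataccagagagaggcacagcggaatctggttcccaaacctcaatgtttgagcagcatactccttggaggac
Irf2 -0.2 kb: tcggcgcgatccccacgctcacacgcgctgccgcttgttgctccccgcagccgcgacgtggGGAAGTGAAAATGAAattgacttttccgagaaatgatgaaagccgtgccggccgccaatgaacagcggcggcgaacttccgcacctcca
Irf4 -51.2 kb: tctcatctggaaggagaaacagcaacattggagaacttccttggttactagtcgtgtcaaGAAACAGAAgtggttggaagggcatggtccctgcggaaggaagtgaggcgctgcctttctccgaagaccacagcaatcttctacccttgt
Irf5 +2.6 kb: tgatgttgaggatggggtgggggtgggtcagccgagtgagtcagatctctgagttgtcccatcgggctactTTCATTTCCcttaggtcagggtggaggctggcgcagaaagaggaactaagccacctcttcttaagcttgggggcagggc
Irf8 +27.1 kb and Irf8 +56.4 kb hold the PU.1 motif, Irf8 +50.3 kb and Irf5 +2.6 kb hold the composite, and Irf8 -16.2 kb and Irf4 -51.2 kb hold the interferon-stimulated response letters. The positions were chr8:123287297-123287446 (Irf8 +27.1 kb), chr8:123261336-123261485 (Irf8 +1.2 kb), chr8:123316626-123316775 (Irf8 +56.4 kb), chr8:123243939-123244088 (Irf8 -16.2 kb), chr8:123310435-123310584 (Irf8 +50.3 kb) and chr8:123240026-123240175 (Irf8 -20.2 kb). The others were chr11:53607617-53607766 (Irf1 +24.2 kb), chr8:47824791-47824940 (Irf2 -0.2 kb), chr13:30789861-30790010 (Irf4 -51.2 kb) and chr6:29479129-29479278 (Irf5 +2.6 kb). Irf8 +1.2 kb lies in an intron of Irf8, Irf5 +2.6 kb in an intron of Irf5, Irf4 -51.2 kb in an intron of Dusp22, Irf1 +24.2 kb in an intron of Gm12216 and Irf2 -0.2 kb in an exon of the non-coding gene Gm16675. The other Irf8 sites are intergenic.

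All 8 genes carried PU.1 peaks at each time, with 138 in MPs, 141 at 36 h and 154 in OCs, while 0 IgG peaks lay at any of them and 2.07% of gene windows held 1 or more. The lists hold 76243, 71941 and 77072 PU.1 peaks, and a PU.1 peak at all 3 times was present in 84.1% of protein-coding gene windows. The median gene window held 9 PU.1 peaks in each list, and only the Irf7 window, with 9, 9 and 12, was at that number in MPs and at 36 h. The Peak Score of a peak is its tag count scaled to a common library size, with a lowest value of 10.2 to 10.3 and a median of 23.5 to 23.9 in the PU.1 lists. The IgG list comes from MPs alone and has a lowest score of 22.4, so it cannot show background below that score. A single tag was worth 1.71 score units in the PU.1 list of MPs, 1.48 at 36 h and 1.47 in OCs, so the lowest PU.1 peaks rest on 6 to 7 tags. Joined over the 3 lists the peaks formed 189 sites of 102370 in all. Of these, 94 had an IRF gene as the nearest gene start and 42 lay inside an IRF gene, so much of what was counted in the wide windows lay nearer to other genes. At Irf9 the nearest start was its own for 4 of 26 sites and at Irf3 for 2 of 19, against 32 of 49 at Irf2, 20 of 28 at Irf8 and 19 of 22 at Irf4.

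**Figure D1:**
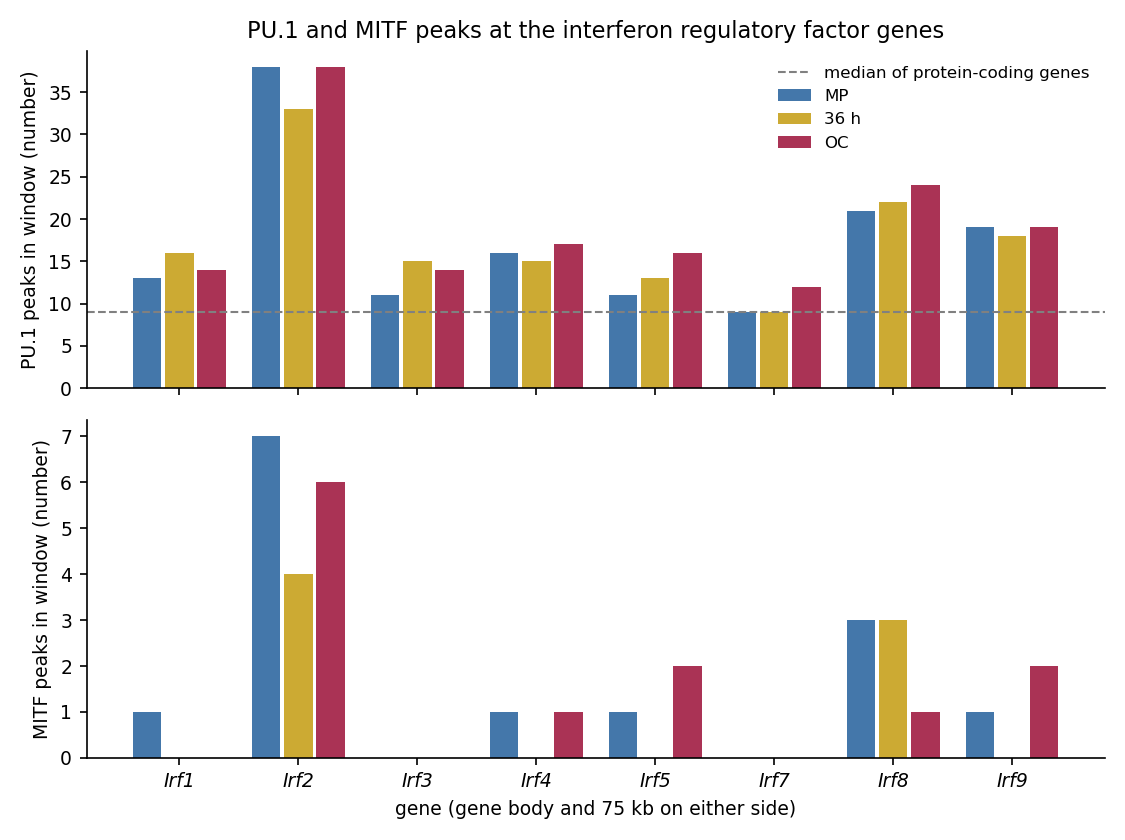
Number of PU.1 peaks (upper axis) and MITF peaks (lower axis) in the window of each gene, with 1 bar per list (MP, 36 h, OC) and the dashed line at the median of 9 PU.1 peaks over 22365 protein-coding genes. Irf2 is highest for both factors, and Irf3 and Irf7 have no MITF peak.

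Irf8 had 21 PU.1 peaks in MPs, 22 at 36 h and 24 in OCs, with summed scores of 1335.7, 1129.3 and 1362.7. The summed score was above that of 96.96%, 96.45% and 97.63% of gene windows. Of the 28 sites at Irf8, 18 were called at all 3 times, and the highest of them lay downstream of, upstream of and inside the gene. The ratio of the summed scores of OCs over MPs was 1.02, higher than in 57.01% of gene windows, with 3150 bp covered by peaks in MPs and 3600 bp in OCs and mean scores of 63.6 and 56.8. The 19 pairs of overlapping MP and OC peaks had a median ratio of 1.02, against 0.983 over all pairs of these lists.

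The highest PU.1 peak at Irf8 was the +27.1 kb site, downstream of the gene, with scores of 185.9 in MPs, 186.2 at 36 h and 189.4 in OCs. These 3 values are nearly level, and the ratio of OCs over MPs was 1.02 (95% counting interval 0.783 to 1.33). The -16.2 kb site scored 165.5 in MPs, 113.8 at 36 h and 111.6 in OCs. It was highest in MPs, and its OC over MP ratio was 0.674 (0.493 to 0.920). The ChIP-qPCR primers that the study used for Irf8, tcgctgtctgcttcagagg and gcaaacactaactatcggcaaga, match a 77 bp segment at chr8:123243864-123243940 whose end overlaps the upstream edge of this site. By conventional ChIP the study reported binding of both PU.1 and MITF at Irf8.

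Within the gene, the site at +6.4 kb scored 150.1, 78.3 and 118.9 in MPs, 36 h cells and OCs. It was lowest at 36 h, with a ratio of 36 h over MPs of 0.522 (0.364 to 0.742), and the ratio of OCs over MPs was 0.792 (0.579 to 1.08). This site was chosen here after its values were seen. From MPs to 36 h, 2 of 18 Irf8 pairs had an interval below 1, as did 9.80% of all pairs. The site nearest the gene start, at +1.2 kb, was low in all lists, with scores of 22.2, 23.7 and 25.0. No PU.1 site had its center within 1 kb of the Irf8 start.

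The Irf8 pairs with the largest differences between MPs and OCs went in opposite directions. The site at +50.3 kb scored 54.6 in MPs, 53.2 at 36 h and 108.7 in OCs. It was higher in OCs than in either earlier list, with OC over MP ratio 1.99 (1.30 to 3.12) and log2 ratio 0.99. The site at -27.0 kb scored 90.4, 65.0 and 47.0. It was lower in each later list, with OC over MP ratio 0.520 (0.324 to 0.821). A site at -20.2 kb was called at 36 h (20.7) and in OCs (32.3) and not in MPs, where any peak below the lowest listed score would be missing. The +50.3 kb and -27.0 kb sites were picked for their size of change among 104 pairs with at least 20 tags, so their intervals describe 2 libraries and test nothing.

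**Figure D2:**
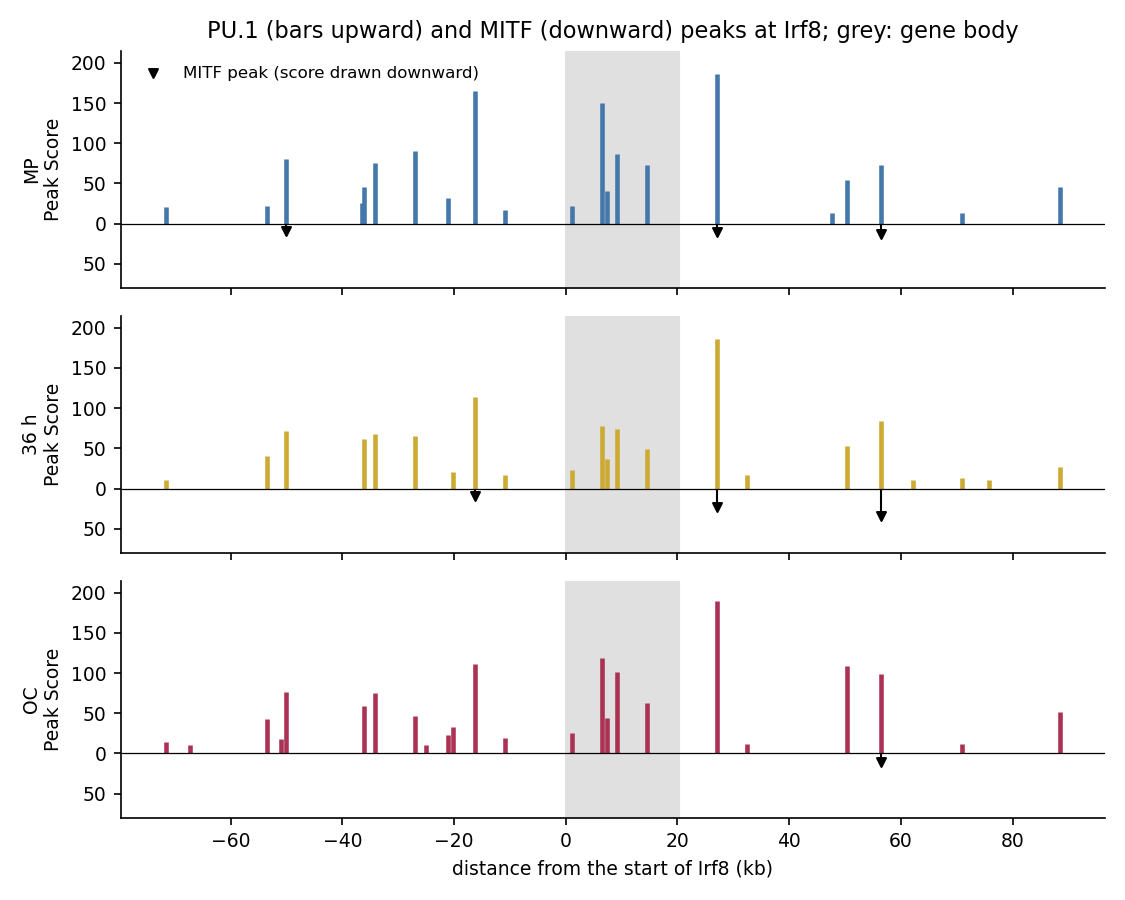
PU.1 Peak Score (bars upward) and MITF Peak Score (black, downward) of each peak against its distance in kb from the Irf8 start, in MPs, at 36 h and in OCs from top to bottom, with the gene body in grey. The +27.1 kb site keeps 185.9 to 189.4, the -16.2 kb site is highest in MPs, and the +50.3 kb site is highest in OCs at 108.7.

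Irf4, the close relative of Irf8 that also pairs with PU.1, had 16 PU.1 peaks in MPs, 15 at 36 h and 17 in OCs, of which none lay inside the gene. Its highest site was at -51.2 kb in an intron of Dusp22, with scores of 187.6, 143.4 and 164.5 and an OC over MP ratio of 0.877 (0.668 to 1.15). The site nearest the Irf4 start was at -4.6 kb and scored 87.0, 63.6 and 67.5. A site just past the gene end at +17.8 kb scored 150.1 in MPs, 63.6 at 36 h and 102.8 in OCs. It was lowest at 36 h, with an OC over MP ratio of 0.685 (0.493 to 0.948), and was chosen here because its interval excluded 1. A site at +39.4 kb scored 27.3 in MPs and 35.5 at 36 h and was not listed in OCs.

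Irf2, which competes with Irf1, had the most PU.1 peaks of the 8 genes, with 38 in MPs, 33 at 36 h and 38 in OCs. Its summed scores of 2545.0, 2060.4 and 2208.3 were above those of 99.89%, 99.84% and 99.83% of gene windows and made up 35.09%, 31.26% and 30.31% of the sums over the 8 genes. The window is the longest of the 8, at 257.7 kb, and its 14.75 peaks per 100 kb in MPs were still above the density of 98.42% of windows. Of the 49 sites, 22 lay inside the gene and 27 were called at all 3 times. The summed score of OCs over MPs had a ratio of 0.868, lower than in most gene windows (higher than in 20.53%), with 5700 bp covered in both lists and mean scores of 66.97 in MPs and 58.11 in OCs. Of 30 pairs, 9 scored higher in OCs, where 47.37% of all pairs did, and the median pair ratio was 0.860, against 0.983.

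The highest Irf2 site, past the gene end at +146.7 kb, scored 206.4 in MPs, 146.3 at 36 h and 174.7 in OCs. Like the +129.7, +147.7 and +150.7 kb sites named below, it lies closer to the start of Enpp6 than to that of Irf2. It was lowest at 36 h, and the OC over MP ratio was 0.846 (0.652 to 1.10). The site just before the Irf2 start, at -0.2 kb, scored 59.7, 63.6 and 66.1, which differ by less than counting error with a ratio of 1.11 (0.696 to 1.77). The intronic +97.4 kb site scored 63.1, 31.0 and 23.5. It was the 1 pair of all 8 genes with at least a 2-fold lower score in OCs than in MPs, with ratio 0.372 (0.193 to 0.686), log2 ratio -1.42, 37 tags in MPs and 16 in OCs. The +129.7 kb site scored 35.8, 22.2 and 20.6 with ratio 0.575 (0.270 to 1.18). The +147.7 kb site was listed in OCs alone at 52.9, the highest score of all sites at the 8 genes that were listed in a single list. The intronic +30.3 kb site was listed at 36 h (29.6) and in OCs (39.6) and not in MPs. Peaks can be missing from a list far above its lowest score. The +154.7 kb site scored 58.0 in MPs and 49.9 in OCs and was not listed at 36 h. Sites missing from a list were therefore not read as gains or losses at any of the 8 genes.

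**Figure D3:**
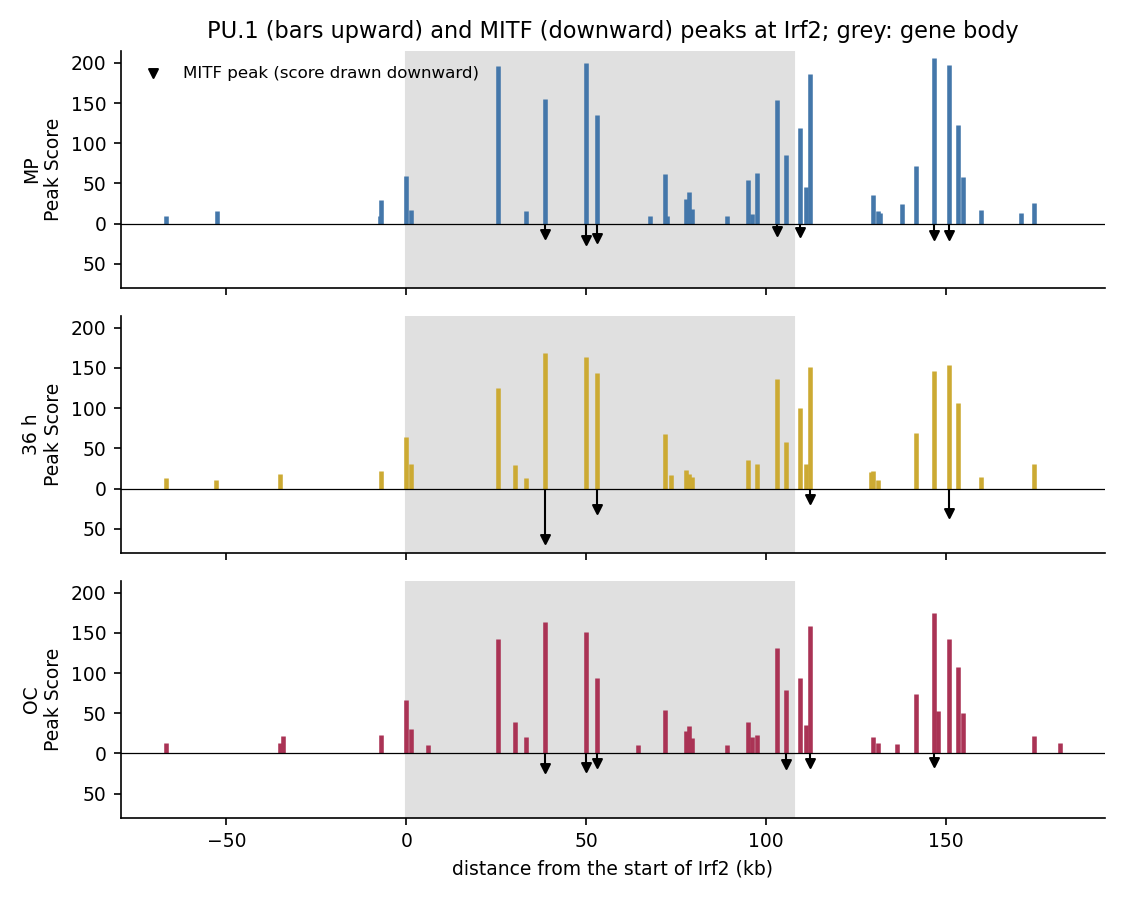
PU.1 Peak Score (bars upward) and MITF Peak Score (black, downward) of each peak against its distance in kb from the Irf2 start, in MPs, at 36 h and in OCs from top to bottom, with the gene body in grey. High PU.1 sites lie in the introns and past the gene end in all 3 lists, and 9 of the 49 sites carry a MITF peak in at least 1 list.

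Irf1 had 13 PU.1 peaks in MPs, 16 at 36 h and 14 in OCs, with summed scores of 711.4, 741.9 and 740.0. Its highest site was at +24.2 kb with 172.3, 146.3 and 142.4, and its ratio of OCs over MPs was 0.827 (0.619 to 1.10). The site nearest the start, at +1.6 kb in an Irf1 intron, scored 29.0, 39.9 and 35.2. The +2.7 kb site, inside Irf1 and in a coding exon of the overlapping gene model Gm17334, scored 150.1, 133.0 and 157.1. An intronic site at +4.9 kb was listed in MPs (27.3) and at 36 h (42.9) and not in OCs. The -62.6 kb site scored 13.6, 22.2 and 33.8. It was higher in each later list, and its OC over MP ratio of 2.49 (1.07 to 6.40) was the highest among named pairs, but it rests on 8 tags in MPs and lies 56 bp from the start of Rad50, a DNA repair gene, and not near Irf1.

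Among the genes of nucleic acid and Toll-like receptor sensing, Irf3 had the lowest PU.1 scores of the 8. It had 11, 15 and 14 peaks in MPs, 36 h cells and OCs with summed scores of 232.3, 301.6 and 270.1, close to the median window at 308.9, 279.4 and 309.8. The +0.1 kb site in its 5' UTR scored 17.1, 17.7 and 22.0, and its highest site, at +65.1 kb in an intron of Nosip, scored 49.5, 37.0 and 39.6. Irf5 had 11, 13 and 16 peaks with summed scores of 520.1, 495.2 and 643.0. Its highest site lay at -2.2 kb, close before the start, and stayed level at 124.5, 127.1 and 133.6 with an OC over MP ratio of 1.07 (0.780 to 1.48). The intronic +2.6 kb site of Irf5 scored 63.1, 42.9 and 61.7. The -51.9 kb site scored 10.2, 16.3 and 22.0 and had an OC over MP ratio of 2.16 with a counting interval of 0.789 to 6.77.

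Irf7 had 9, 9 and 12 PU.1 peaks with summed scores of 458.8, 441.8 and 543.2. Its highest sites lie close to the short gene. The -2.6 kb site, in the 3' UTR of the neighboring gene Cdhr5, scored 124.5, 133.0 and 117.5, and the +1.5 kb site inside Irf7 scored 116.0, 76.9 and 102.8. The OC over MP ratios were 0.944 (0.678 to 1.31) and 0.886 (0.626 to 1.26), and both intervals hold 1. At 36 h the +1.5 kb site was lower than in MPs, with ratio 0.663 (0.453 to 0.965). The +47.1 kb site, nearest to the start of Rassf7, scored 47.8, 71.0 and 91.0 with ratio 1.90 (1.20 to 3.09), and was chosen here because its interval excluded 1. The +61.8 kb site scored 13.6 in MPs and 26.4 in OCs, was not listed at 36 h, and had ratio 1.94 (0.801 to 5.15).

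Irf9 had 19 PU.1 peaks in MPs, 18 at 36 h and 19 in OCs, and summed scores of 478.9, 622.1 and 632.9. The OC over MP ratio of the sums was 1.32, higher than in 92.22% of gene windows and the highest of the 8 genes, with 2850 bp covered in both lists and mean scores of 25.2 and 33.3. At 36 h, 12 of 13 pairs scored higher than in MPs, and in OCs 9 of 13 did, with median ratios of 1.41 and 1.55. Over all pairs, 39.93% scored higher at 36 h and 47.37% in OCs, with median ratios of 0.917 and 0.983. The highest site, at +56.7 kb in Mdp1, scored 61.4, 100.5 and 95.4, with an OC over MP ratio of 1.55 (1.02 to 2.41). The +0.1 kb site at the Irf9 start was listed in OCs alone at 14.7, and the +0.5 kb site scored 37.5, 34.0 and 25.0 with ratio 0.667 (0.332 to 1.31). The sites with the highest OC scores in the window thus lay at neighboring genes. The +40.0 kb site, 196 bp from the start of Tm9sf1, scored 13.6, 28.1 and 30.8 with ratio 2.27 (0.962 to 5.90). Lower in OCs were the +32.2 kb site with 23.9, 25.1 and 14.7 (ratio 0.615, 0.244 to 1.49) and the -12.4 kb site with 20.5 in MPs and 13.2 in OCs (ratio 0.644, 0.240 to 1.67).

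**Figure D4:**
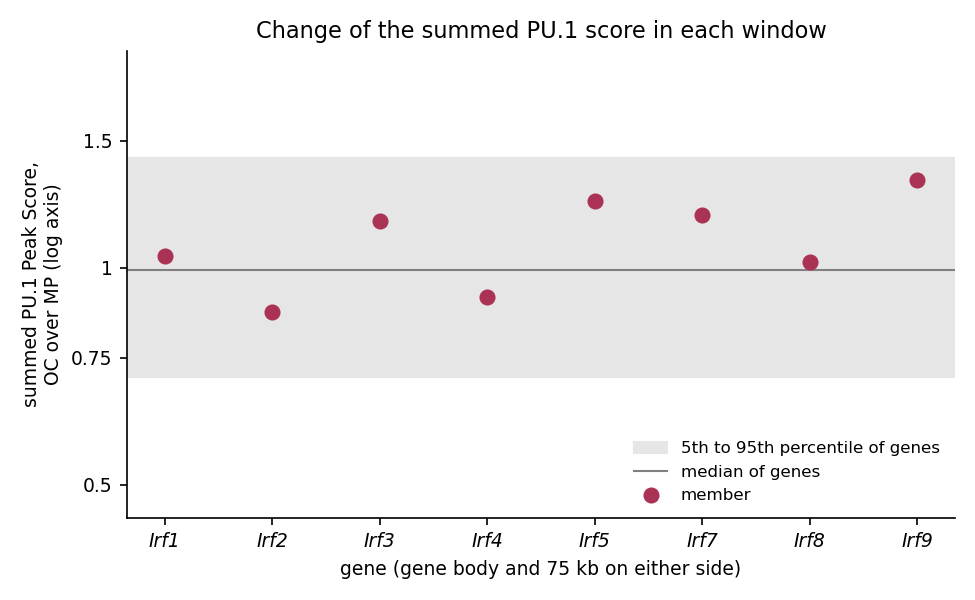
Ratio of the summed PU.1 Peak Score of OCs over MPs in the window of each gene (points, log axis), with the 5th to 95th percentile (0.705 to 1.42) and the median (0.994) of 18973 gene windows in grey. All 8 genes lie within the band, from 0.868 at Irf2 to 1.32 at Irf9.

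Over the 8 genes together the PU.1 scores of MPs and OCs were close. Of 115 pairs of overlapping peaks, 3 scored at least 2-fold higher in OCs, at Irf1, Irf5 and Irf9, where 2.69% of all 60100 pairs did, and 1 scored at least 2-fold lower, where 2.5% of all pairs did. Both counts are near these backgrounds. Of the 3, the Irf1 pair also had an interval above 1, and 1.34% of all pairs were both 2-fold higher and had such an interval. The 1 lower pair, at Irf2, also had an interval below 1, and 1.63% of all pairs were both 2-fold lower and had such an interval. The counting interval of the ratio lay above 1 for 5 pairs, where it did for 2.41% of all pairs, and below 1 for 8 pairs, where it did for 4.85%. Of the 8 pairs, 5 were at Irf2, 2 at Irf8 and 1 at Irf4, and of the 5 pairs, 2 were at Irf9 and 1 each at Irf1, Irf7 and Irf8.

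The step from MPs to 36 h shares the MP list with the comparison above. Its 113 pairs had a median ratio of 0.978, with 1 at least 2-fold higher (2.57% of all pairs) and 4 at least 2-fold lower (5.24%). From 36 h to OCs the 124 pairs had a median ratio of 1.06, with 2 at least 2-fold higher (3.06% of all pairs) and 0 at least 2-fold lower (1.78%). The ratios of all pairs had medians of 0.917 and 1.08 in these 2 steps, so paired peaks tended to score lower at 36 h. The median score of the whole 36 h list was 23.7, against 23.9 in MPs and 23.5 in OCs. Peaks in the 36 h list are 190 bp wide against 150 bp in the other PU.1 lists. Whether this width moved the scores was not tested.

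**Figure D5:**
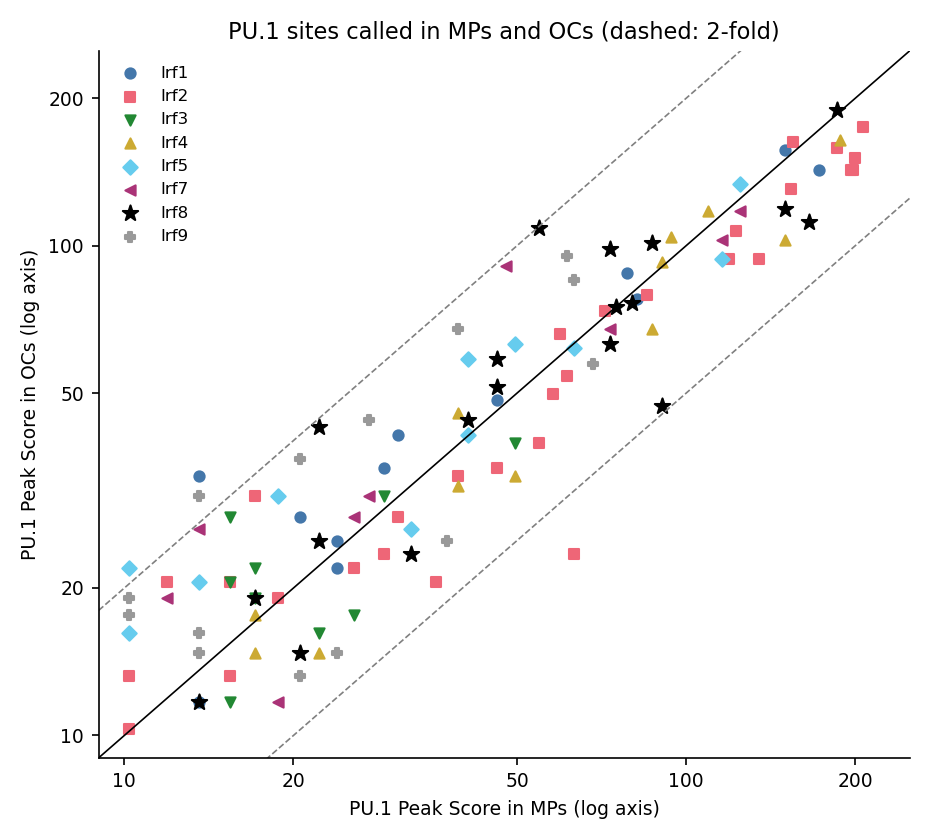
PU.1 Peak Score in OCs against the score in MPs for each site at the 8 genes that was listed in both (log axes, 1 symbol per gene). These sites hold the 115 pairs of overlapping peaks. Equality is the solid line and 2-fold differences are dashed. Most points lie near equality, 3 sites lie above the upper dashed line and 1 Irf2 site lies below the lower line.

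Most PU.1 sites at the IRF genes were shared between the times. Of 154 OC peaks, 115 overlapped an MP peak, which is 74.68% (95% Wilson interval 67.26% to 80.89%), against 78.0% of the whole OC list. Of 138 MP peaks, 115 overlapped an OC peak, which is 83.33% (76.23% to 88.63%), against 78.8% of the whole MP list. Both intervals hold the share of the whole list. Of the 189 sites, 109 were called at all 3 times, which is 57.67% (50.54% to 64.49%), against 50.5% of all sites. Another 54 sites (28.57%) were listed at a single time, against 30.48% of all sites, and the median score was 11.9 in both, close to the lowest score a list can hold. Of the 109 sites, the score was higher at each later time for 23 (21.1%, against 14.83% of 51716 sites called at all 3 times) and lower at each later time for 14 (12.84%, against 16.28%). The 23 included 5 of 13 such sites at Irf9 and 5 of 11 at Irf5, and the 14 included 6 of 27 at Irf2. In all, 27 sites reached a score of 100 in some list, which is 14.29%, against 8.41% of all sites, and this limit was chosen after the scores were seen.

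MITF peaks were fewer, with 14 at the 8 genes in MPs, 7 at 36 h and 12 in OCs, of 5413, 3540 and 4443 listed. All 33 overlapped PU.1 peaks of their own condition (100%, Wilson interval 89.57% to 100%), where 95.3% of all MITF peaks did, with 97.9% of the MP list, 93.8% of the 36 h list and 93.3% of the OC list. The 33 peaks fell on 19 PU.1 sites, several of them in more than 1 list. Such repeats are not independent, so this interval is too narrow. MITF peaks lay at Irf2 and Irf8 at each time, and at least 1 MITF peak was present in 40.2%, 30.7% and 36.2% of protein-coding gene windows in MPs, at 36 h and in OCs. Irf3 and Irf7 had 0 MITF peaks in every list, and over the 3 times 48.9% of gene windows had at least 1. Of the 189 PU.1 sites, 19 overlapped a MITF peak at some time, which is 10.05% (6.53% to 15.17%), against 7.02% of all sites. None of the 19 had a highest PU.1 score under 63.1. Of the 27 sites that reached a score of 100, 14 carried MITF (51.85%), where 62.8% of all such sites did.

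At Irf8, MITF was listed at 4 PU.1 sites. The +56.4 kb site carried it at each time, with MITF scores of 12.5 in MPs, 34.1 at 36 h and 10.3 in OCs, next to PU.1 scores of 73.3, 84.3 and 98.4. The +27.1 kb site, the highest for PU.1, carried MITF in MPs (10.4) and at 36 h (23.4) and was not listed in OCs. The -50.1 kb site carried it in MPs alone (9.3, from 9 tags), and the -16.2 kb site at 36 h alone (9.7, from 10 tags). The numbers at Irf8 were thus 3, 3 and 1. The scores in single lists were at or near the lowest value of their list, 9.3 in MPs, 9.7 at 36 h and 9.1 in OCs, so a missing peak there can be a small loss of tags.

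At Irf2, MITF was listed at 9 PU.1 sites, with 7 peaks in MPs, 4 at 36 h and 6 in OCs. The +38.6 kb site scored 12.5, 62.3 and 18.3 for MITF and 155.2, 168.5 and 163.0 for PU.1, and the +53.1 kb site 17.7, 25.3 and 11.4 for MITF and 134.8, 143.4 and 94.0 for PU.1. Both are intronic and carried MITF at each time. The +49.9 kb site carried MITF in MPs (20.8) and OCs (17.1), the +150.7 kb site in MPs (14.5) and at 36 h (30.2), and the +146.7 kb site in MPs (14.5) and OCs (10.3).

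The other MITF peaks were low. Irf4 -51.2 kb carried MITF in MPs and OCs at 11.4 each, Irf5 -2.2 kb in MPs (10.4) and OCs (10.3), and Irf9 +56.7 kb in MPs (9.3) and OCs (9.1). Irf5 +2.6 kb (10.3) and Irf9 +74.1 kb (9.1) carried it in OCs alone, and Irf1 +2.7 kb in MPs alone (10.4). The 8 MITF pairs of MPs and OCs had ratios from 0.644 to 1.46, and the counting interval held 1 for each. The MITF 36 h list has peaks 150 to 1387 bp wide where the other MITF lists have 150 bp, and the 36 h over MP ratio of all MITF pairs had a median of 1.63. The higher MITF scores at 36 h at Irf2 and Irf8 were therefore not read as a change at these genes.

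Motif letters were counted within 100 bases of the center of each of the 189 sites. The PU.1 motif was found at 30 (15.87%), against 21.65% of 102273 sites with sequence in all, and the composite at 29 (15.34%), against 14.95%. The interferon-stimulated response letters were found at 21 (11.11%), against 9.80% of all sites, CACGTG at 10 (5.29%, against 3.23%) and CATGTG at 20 (10.58%, against 14.52%). Matches of the PU.1 motif and of the composite overlapped at 1 site. Irf8 held the PU.1 motif at 9 of 28 sites and the composite at 2, of which the +50.3 kb site printed above is 1. Irf3 held the PU.1 motif at 0 of 19 sites and the composite at 5. Of the 19 sites with MITF, 1 held an E-box of either form, where 16.95% of all sites with MITF did.

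Other genes of the interferon pathway were taken as a list of 25, among them the interferon receptors, Jak kinases, sensors, adaptors and interferon-stimulated genes. All 24 that are in the annotation had PU.1 peaks at each time, as did 84.1% of gene windows, and 20 had a MITF peak at some time, as did 48.9%. Their windows held a median of 19.5 PU.1 peaks in MPs, 15.5 at 36 h and 19.0 in OCs, and some of them overlap. Of 309 pairs of MP and OC peaks, 5 scored at least 2-fold higher (2.69% of all pairs did) and 6 at least 2-fold lower in OCs (2.5% did), with a median ratio of 1.02 against 0.983 over all pairs.

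The gene windows most like Irf8 in summed PU.1 and MITF score over the 6 lists were those of Rab1, Usp20 and Bach1, at Euclidean distances of 0.472, 0.535 and 0.559 on the log2 scale, among 22360 genes compared. Bach1, for example, had 18, 20 and 23 PU.1 peaks and 3, 2 and 1 MITF peaks. Irf2, the nearest of the other IRF genes by this distance, was at rank 4695. The distance counts the MITF lists as much as the PU.1 lists, and a list without a MITF peak adds much to it. In MPs, at 36 h and in OCs, Irf4 (rank 6472) had MITF sums of 11.4, 0.0 and 11.4, against 32.2, 67.2 and 10.3 at Irf8. Its PU.1 sums were 970.6, 799.8 and 885.5 against 1335.7, 1129.3 and 1362.7, so the ranks do not measure PU.1 binding alone.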

How the data were processed

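Binding was measured by ChIP-Seq in 7 libraries, grouped by their labels as PU.1, MITF or IgG in MPs, 36 h cells and OCs. The processing notes of the submitters name CASAVA 1.8, Bowtie2, HOMER and the build mm9, and settings of peak calling are not given in the sources used here. The authors deposited 1 list of HOMER peaks per library, with a Peak Score that is the tag count scaled to a common library size. Input was not subtracted here and no peak was called again. Scores were whole multiples of 1 value per list to within 0.0499, and dividing by it gave tags. The precision of a peak follows from its tags, with 6 to 10 in the lowest peaks of the PU.1 and MITF lists. The IgG list holds 349 peaks.

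The 8 genes and the lists of pathway genes and motifs were chosen with earlier results of these data known. Genes were taken from the GENCODE annotation of mm9, without 2 models longer than 3 Mb. Peaks that shared 1 bp or more were taken as pairs and called different past 2-fold. Shares have 95% Wilson intervals. Ratios of scores have 95% exact Clopper-Pearson intervals, conditional on the sum of the tags, which compare 2 libraries and not 2 conditions. Sites named were, at each gene, the highest, the nearest to the start and those with MITF (the 5 highest at Irf2), over all genes the 5 largest ratios each way with at least 20 tags and the 5 highest sites missing in MPs or OCs, the site of the Irf8 ChIP-qPCR primers, and the 3 genes most like Irf8. Sites named beyond this rule are said to be so or were chosen after their values were seen. Alternatives were narrower windows, the nearest gene start, other folds and overlaps, a score threshold and lists of equal size. Intervals and overlaps were tested on simulated data. Python 3.11.15 was used with numpy 2.4.6, pandas 2.3.3, scipy 1.17.1 and matplotlib 3.10.9.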

Additional observations from a re-analysis of the deposited data

How the results depend on the processing

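No paired analysis was possible because each condition has 1 library. Of 64 alternatives, 37 left the value within its interval or within 1.5 times, and 27 moved it. The number of PU.1 peaks in MPs, at 36 h and in OCs was 87, 87 and 95 with a window of 35 kb, 66, 67 and 73 with 20 kb, 72, 72 and 78 when the IRF gene had to be the nearest start, and 90, 92 and 100 for scores of at least 2 times the lowest. MITF peaks in MPs, at 36 h and in OCs numbered 8, 5 and 7 with either narrower window and 8, 6 and 8 by the nearest start. They numbered 1, 5 and 1 under the score threshold and 7, 7 and 10 with lists of equal size. The lower MITF count at 36 h than in MPs was thus reversed under the score threshold and absent with lists of equal size. Under the score threshold, 88.89% of MP peaks overlapped an OC peak, 65.22% of sites were called at all 3 times, and 0 pairs were 2-fold higher in OCs. At a fold of 1.5, 20 pairs were higher and 8 lower. The number of pairs at least 2-fold higher in OCs was 1 when the counting interval also had to exclude 1, and 1 with 35 kb. All these alternatives keep fewer peaks or change the fold by construction. Low MITF scores and single libraries limit what can be said of changes at any gene.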
